A study of Sus scrofa with 6 samples.

Results

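Cytochromes P450, aldehyde dehydrogenases, aldo-keto reductases, retinol dehydrogenases (RDH), the related DHRS dehydrogenases and hydroxysteroid dehydrogenases (HSD) were examined in porcine oocytes after and before maturation in culture. Genes were taken by symbol from the array annotation (names starting CYP, RDH or HSD with a number, ALDH, AKR or DHRS), leaving out HSD3B1 and HSD17B1, and the brightest probe stood for each gene. This gave 58 genes of the 10867 symbols on the array, namely 22 CYP, 10 HSD, 8 ALDH, 7 RDH, 7 DHRS and 4 AKR genes. The matured group was 3 pools of 50 oocytes that had been kept for 44 h at 38 °C under 5% CO2 as cumulus-oocyte complexes, oocytes still enclosed in their somatic cumulus cells, in TCM-199 medium with follicular fluid, cysteine, hCG and eCG. The comparison group was 3 pools of 50 oocytes taken before maturation, which the titles call in vivo oocytes. All pools came from pubertal crossbred Landrace gilts, with no genetic modification named, and each gave 100 ng of RNA to 2 rounds of amplification for 1 Affymetrix array. The series design also mentions sorting by a dye test, which the single samples do not record, and how cumulus cells were removed is not given in the sources used here. As no oocytes were cultured without maturing, effects of maturation and of culture cannot be told apart.

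These enzymes make, interconvert and remove small lipophilic molecules. Cytochromes P450 are haem proteins that insert oxygen into steroids, sterols, retinoids, fatty acids and foreign compounds, drawing electrons from partner flavoproteins and ferredoxins. The dehydrogenases and reductases move hydride between NAD(P) cofactors and alcohols, aldehydes or ketones, and thereby switch steroid hormones and retinoids between active and inactive forms, clear reactive aldehydes or serve amino acid breakdown. In the ovarian follicle, steroid production belongs mainly to granulosa and theca cells, while the oocyte depends on the cumulus cells for part of its metabolism.

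Arrays are compared on the deposited scale of log2 RMA levels, on which a difference of 1 is a 2-fold change. Correlations across probes were 0.994 to 0.995 among matured pools and 0.989 to 0.993 among pools before maturation, and replicate 3 before maturation lay farthest from the matured pools (0.965 to 0.97). The oocyte label was borne out by oocyte markers, of which 11 of 14 listed were measured. All of these but SOHLH1 were brighter than the median of every array. SOHLH1 lay under every median, with mean levels of 4.82 after and 4.61 before maturation. Summed linear signals of the list were 20706 to 21701 after and 23071 to 24942 before maturation. Of the 11 measured, 3 were called lower (KIT -1.216, ZP3 -0.698 and ZP4 -0.401) and 0 higher, against 8.07% and 3.21% of all probes. Markers of cumulus and granulosa cells were also bright, with sums of 3860 to 4055 after and 6811 to 9264 before maturation, the highest in replicate 3. Among these markers 9 of the 14 measured fell and 2 rose (8.07% and 3.21% of all probes). Their part in the results below was not tested, and in pooled material fewer cells of a type cannot be told apart from less RNA per cell. Sums of the measured theca and stromal markers were 331 to 350.5 after and 346 to 412 before maturation. Those of endothelial markers were 384 to 453 and 367 to 385, and those of leukocyte markers 142 to 165 and 109 to 127. Of 9 leukocyte and erythroid markers listed 5 were measured, and the erythroid HBB and HBA were not among them. The sums do not show calls of single markers. Of 9 theca and stromal markers measured, 2 were called higher (POSTN 1.197 and COL3A1 0.37) and 1 lower (ACTA2 -1.93). Of 6 endothelial markers measured, 0 were called. Among the 5 leukocyte markers 1 was called higher (CD3E 0.48) and 0 lower. Of all probes 3.21% were called higher and 8.07% lower. A marker signal of 0 does not occur on this scale.

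Of the 58 enzyme genes, 9 passed the test (limma, Benjamini-Hochberg adjusted p under 0.05 over all 12258 probes). ALDH2 and CYP26A1 rose, and RDH16, CYP4V2, HSD11B1, ALDH6A1, CYP27A1, HSD17B8 and HSD17B10 fell after maturation. The 2 genes called higher are 3.45% of the 58, against 3.21% of all probes, and the 7 called lower are 12.1%, against 8.07% of all probes. These shares are near those of the array as a whole. ALDH2 alone had a measured rise of at least 2-fold, which 0.359% of all probes had, and RDH16 and CYP4V2 alone a decrease of that size, which 3.3% had. Matured arrays lay above all arrays from before maturation for 9 of the genes (15.5%, against 21.7% of all probes) and below them for 12 (20.7%, against 14.4%). The median difference was 0.03 over the 58 genes and 0.08 over all probes.

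**Figure D1:**
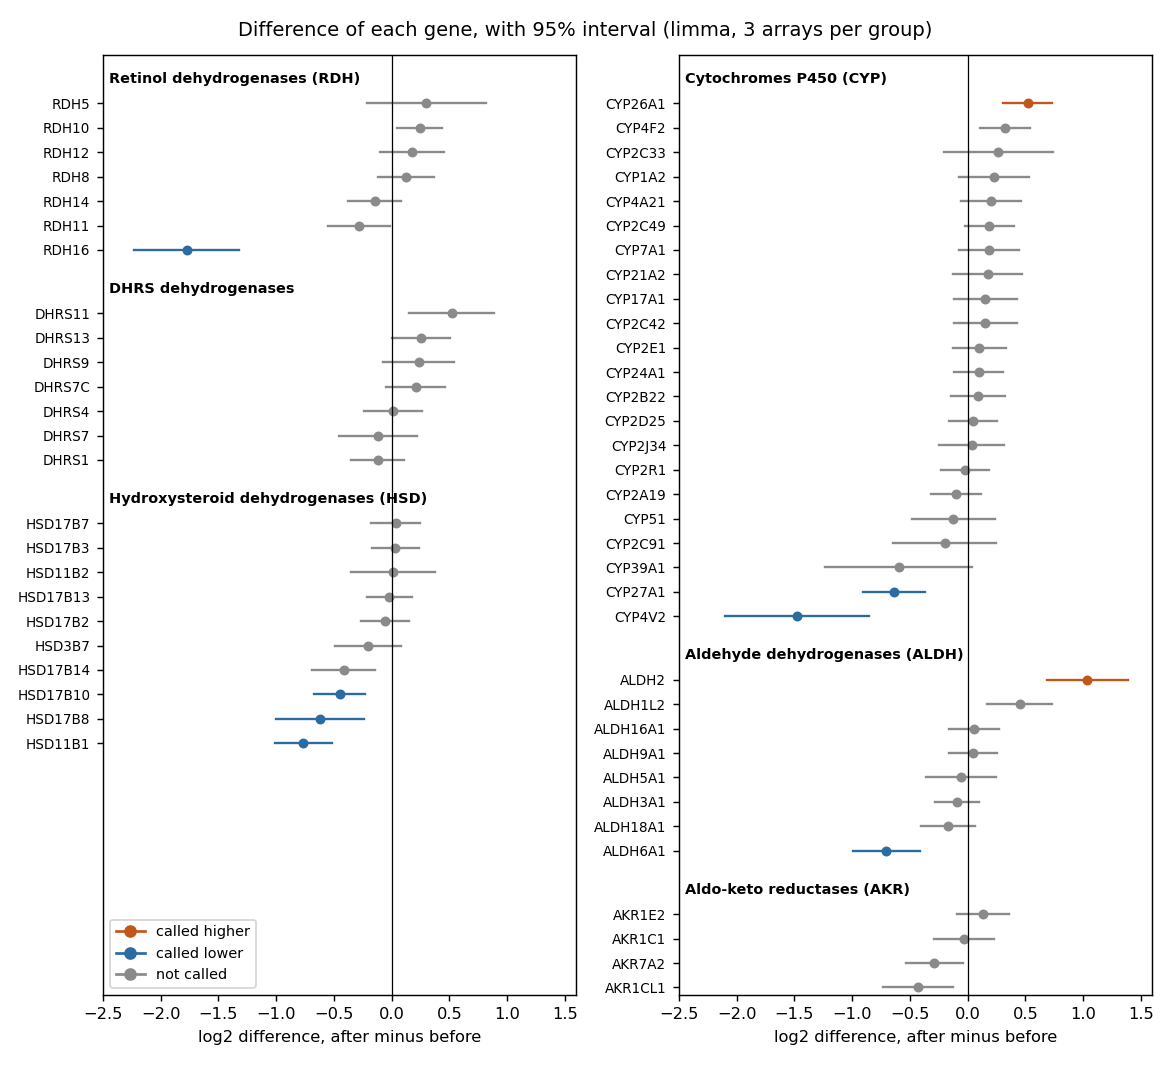
Log2 difference after minus before maturation of each of the 58 genes, by family, with the 95% interval of the limma fit on 3 arrays per group; colours mark genes called higher, called lower or not called at an adjusted p under 0.05. Most intervals lie across or near 0, while RDH16 and CYP4V2 stand far to the left and ALDH2 to the right. In fits not drawn here, HSD17B10 had a difference above 0 when ribosomal protein genes were held level. ALDH6A1, CYP27A1 and HSD17B8 had one in the narrower version of that scaling.

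The split of calls depended on how arrays were scaled. There were 4 genes called higher and 5 lower after a second quantile normalization, 6 and 6 with arrays set to a common median, and 2 and 7 with cyclic loess. Of all probes, 4.86% were called higher and 7.06% lower, 7.46% and 7.27%, and 2.07% and 8.61% on these scales in turn. A scaling that holds 49 probes with ribosomal protein symbols level moved the median of all probes by 0.45, and under it 37 genes were called higher and 2 lower. Under it 75% of all probes were called higher and 4.41% lower. ALDH2 and CYP26A1 were called higher and RDH16 and CYP4V2 lower on every one of these scales. Under the ribosomal scaling the other 5 genes were not called, with differences of -0.25 for ALDH6A1, -0.18 for CYP27A1, -0.31 for HSD11B1, -0.17 for HSD17B8 and 0.0016 for HSD17B10. A narrower version of it, chosen after seeing the data because 12 of the 49 probes stand for S6 kinases and other genes of like name, gave 48 genes called higher and the same 2 called lower. The narrower version called 87.4% of all probes higher and 2.5% lower. Under that version ALDH6A1 (0.05), CYP27A1 (0.12), HSD17B8 (0.13) and HSD17B10 (0.31) had values above 0, and HSD11B1 was at -0.0093. In both ribosomal versions the adjusted p followed the size of the difference, whatever the spread of the gene. Under the planned one CYP26A1 and DHRS11 both differed by 0.97, with limma adjusted p of 1.89e-06 and 1.88e-06. Their standard errors as reported were 0.09 and 0.16. Calls under these 2 scalings, that of CYP4V2 included, therefore do not weigh how far replicates of a gene differ. Leaving out replicate 1 of the matured pools left 3 genes called lower, and leaving out their replicate 2 left 4. Of all probes 531 and 545 were then called lower, against 989 as reported. Without replicate 3 before maturation, the array farthest out, 2 genes were called higher and 6 lower, with 166 and 786 of all probes.

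**Figure D2:**
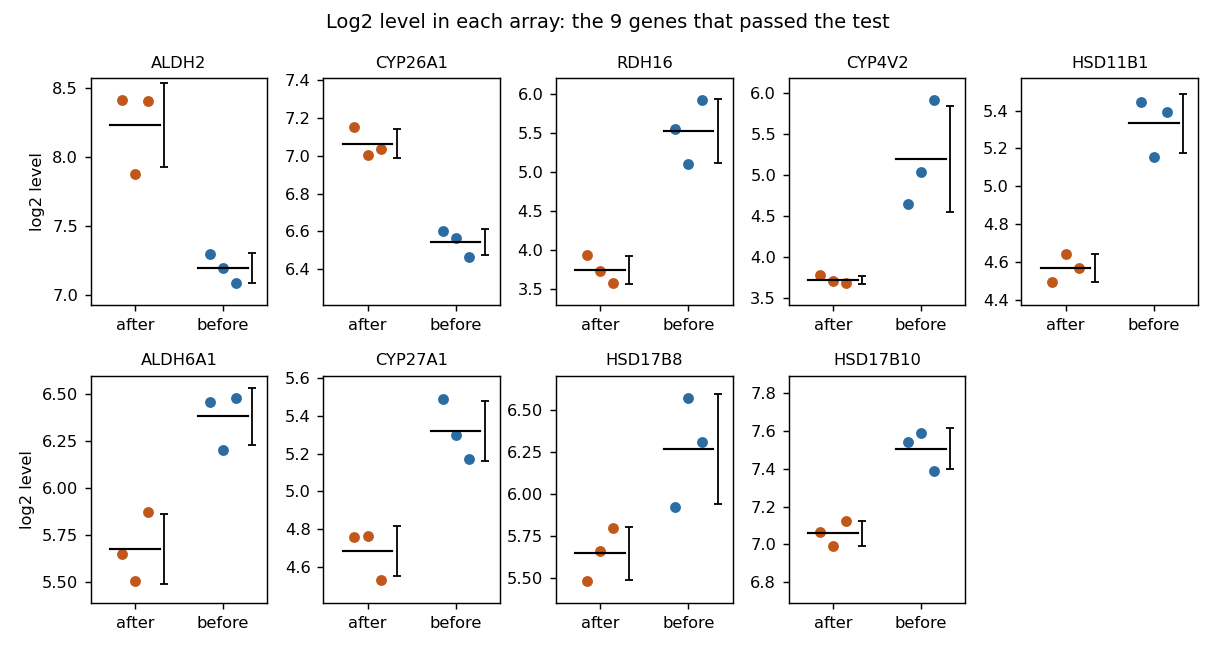
Log2 level of the 9 genes that passed the test in each array (points, replicates 1 to 3 from left to right), with the group mean (line) and SD (bar); each panel has its own vertical range. The 3 matured arrays lie wholly above or wholly below the 3 from before maturation in every panel, most widely for RDH16. In fits not drawn here, the decrease of HSD17B10 was lost when ribosomal protein genes were held level. The differences of ALDH6A1, CYP27A1 and HSD17B8 turned positive in the narrower version of that scaling.

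Retinol is oxidised to retinal by RDH and DHRS enzymes, retinal to retinoic acid by aldehyde dehydrogenases, and retinoic acid is degraded by the CYP26 enzymes. ALDH1A1 and ALDH1A2 of the retinal step, CYP26B1 and DHRS3 were not among the 58 genes and were not analysed here. RDH16, a microsomal enzyme that oxidises retinol and androgen-related sterols, had log2 levels of 3.93, 3.72 and 3.57 in matured oocytes, against 5.55, 5.09 and 5.91 before maturation. All 3 matured pools were low and close together, and the groups were far apart. Its level fell by 1.78 ± 0.20 (SE) on the log2 scale, a measured 3.43-fold lower level (adjusted p = 0.000965). The matured values lay under the lower quartile of their arrays (4.33 to 4.45).

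CYP26A1, which inactivates retinoic acid, moved the other way. Its levels were 7.15, 7.01 and 7.03 in matured oocytes, against 6.60, 6.57 and 6.47 before maturation. Replicates of both groups differed by less than 0.2, and every matured pool was higher. The difference was 0.52 ± 0.09 (1.43-fold, adjusted p = 0.00927). It kept its call with any single array left out, with adjusted p between 0.0168 and 0.0495.

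Other retinol dehydrogenases did not pass the test. RDH10, the enzyme on which embryonic retinal formation depends, was bright and tightly replicated, at 10.12, 10.09 and 10.11 after and 9.90, 9.89 and 9.81 before maturation. Its matured arrays were all higher, by 0.24 ± 0.08 (adjusted p = 0.103), and with arrays at a common median it was called (0.30, adjusted p = 0.0481). RDH11, a retinal reductase of many tissues, had a difference of -0.28 ± 0.12 (adjusted p = 0.152) with the groups not overlapping. RDH14, another broadly expressed member, differed by -0.15 (adjusted p = 0.359). RDH5, RDH8 and RDH12, known from the visual cycle of the eye, had differences of 0.30, 0.13 and 0.17, with adjusted p of 0.399, 0.451 and 0.366. RDH5 varied more than the rest before maturation, at 5.32, 4.82 and 4.29.

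Among the 7 DHRS genes 0 were called with limma, against 3.21% of all probes called higher and 8.07% lower. DHRS11 and DHRS13 had an unadjusted p under 0.05. DHRS11, a reductase of 17-keto- and 3-ketosteroids, had levels of 6.66, 6.29 and 6.94 after and 6.19, 6.16 and 5.99 before maturation. The matured pools were higher but spread widely (0.52 ± 0.16, adjusted p = 0.0752). It was called after a second quantile normalization (0.65, adjusted p = 0.0256), with a common median (0.58, adjusted p = 0.0466) and without replicate 2 after maturation (0.69, adjusted p = 0.0266), the lowest of the matured arrays. DHRS11 was not called with cyclic loess (adjusted p = 0.0749) or without any other single array (adjusted p of 0.0917 to 0.194). DHRS13, whose substrate is not well known, differed by 0.26 and DHRS9, which acts on retinol and neurosteroids, by 0.23 (adjusted p = 0.164 and 0.281). DHRS7C, known from muscle, was dim on all 6 arrays and differed by 0.21 (adjusted p = 0.246). DHRS4, a retinal and ketone reductase of peroxisomes, differed by 0.0087, DHRS1 by -0.12 and DHRS7 by -0.12, with adjusted p of 0.963, 0.442 and 0.619.

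Of 13 measured genes of retinoid transport and signalling 0 rose and 1 fell (3.21% and 8.07% of all probes). STRA6, the cell-surface receptor that takes up retinol, had levels of 7.19, 6.89 and 6.85 after and 8.29, 7.95 and 8.26 before maturation. It fell by 1.19 ± 0.13 (adjusted p = 0.001), with the groups well apart. The list's median difference was -0.05, against 0.08 for all probes.

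**Figure D3:**
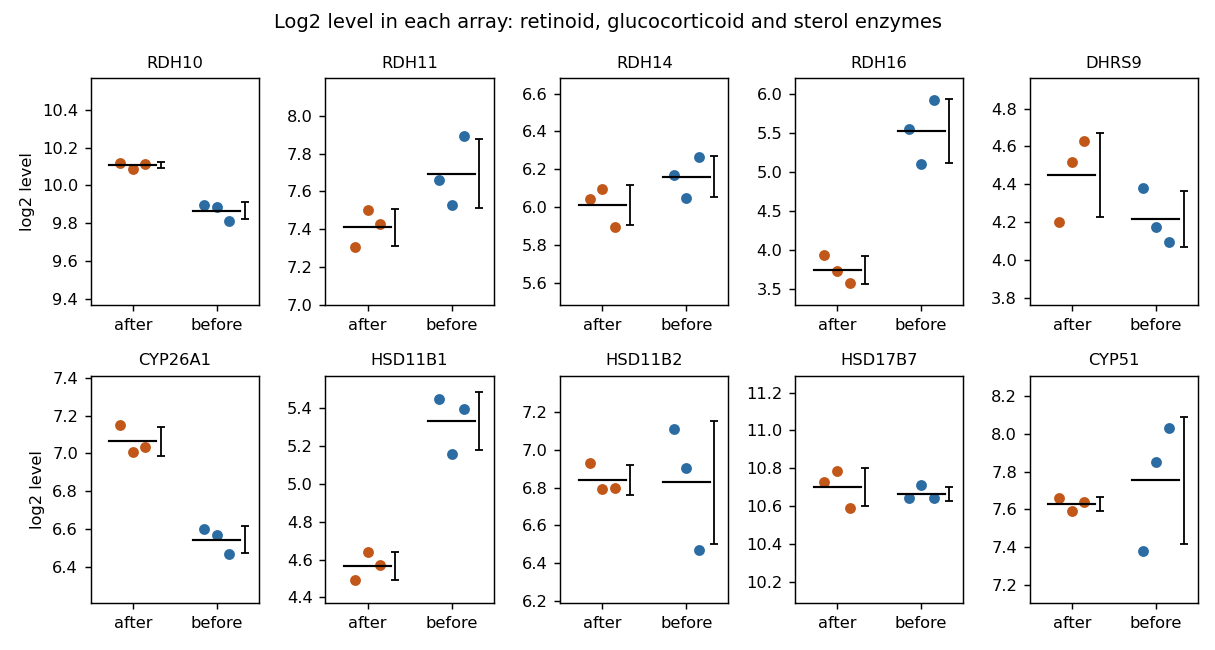
Log2 level of 10 retinoid, glucocorticoid and sterol enzyme genes in each array (points, replicates 1 to 3 from left to right), with the group mean (line) and SD (bar); each panel has its own vertical range. RDH16, HSD11B1 and RDH11 lie lower and CYP26A1 and RDH10 higher in the 3 matured arrays, RDH10 and RDH11 without a call. RDH14, DHRS9, HSD11B2, HSD17B7 and CYP51 overlap between the groups. In fits not drawn here, HSD11B1 was not called when ribosomal protein genes were held level.

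Of 10 hydroxysteroid dehydrogenase genes, HSD11B1, HSD17B8 and HSD17B10 were called lower and 0 higher, against 8.07% and 3.21% of all probes, and none of the 3 was called with ribosomal protein genes held level. HSD11B1, which regenerates active cortisol from cortisone, had levels of 4.49, 4.64 and 4.57 in matured oocytes, against 5.45, 5.16 and 5.39 before maturation. Every matured pool was lower, by more than the spread within either group. Its level fell by 0.77 ± 0.11 on the log2 scale (1.70-fold, adjusted p = 0.00305), and it kept the call with any 1 array left out. HSD11B2, the enzyme of the opposite reaction, had levels of 6.93, 6.79 and 6.80 after and 7.11, 6.90 and 6.47 before maturation, with the groups overlapping. Its difference was 0.01, with a 95% interval of -0.35 to 0.37 (adjusted p = 0.963).

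HSD17B10 and HSD17B8 belong to a numbered family whose members often serve lipid and amino acid metabolism in place of steroids. HSD17B10, a mitochondrial enzyme of isoleucine breakdown that is also a subunit of mitochondrial RNase P, had levels of 7.06, 6.99 and 7.12 after and 7.54, 7.59 and 7.39 before maturation. It fell by 0.45 ± 0.10 (1.37-fold, adjusted p = 0.0219), and its value was 0.0016 with ribosomal protein genes held level and 0.31 in the narrower version. The groups were compact and apart, yet the call ended without replicate 1 or 2 after maturation (adjusted p = 0.0791 and 0.0822) and without replicate 2 before it (adjusted p = 0.0666). It also ended after a second quantile normalization (-0.31, adjusted p = 0.0631) and with trend and robust spread (adjusted p = 0.0503). HSD17B8, part of the mitochondrial fatty acid synthesis system, had levels of 5.48, 5.66 and 5.80 after and 5.92, 6.57 and 6.31 before maturation, and fell by 0.62 ± 0.17 (adjusted p = 0.0493), with 0.13 in the narrower ribosomal scaling. The nearest arrays of the groups lay close, and the call ended without any matured array (adjusted p = 0.165, 0.135 and 0.0745 without replicates 1, 2 and 3) and without replicate 2 or 3 before maturation (adjusted p = 0.113 and 0.112). It also ended after a second quantile normalization (adjusted p = 0.0746) and with a common median (adjusted p = 0.0557).

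HSD17B14, an oxidase of oestradiol and other substrates, had levels of 6.50, 6.46 and 6.77 after and 6.84, 7.06 and 7.08 before maturation, all matured pools being lower. Its difference of -0.42 ± 0.12 missed the threshold (adjusted p = 0.0582) and passed it with the replicate number as a block (adjusted p = 0.0371), without replicate 3 after maturation (-0.51, adjusted p = 0.0464) and without replicate 1 before it (-0.49, adjusted p = 0.0407). No other alternative called HSD17B14. HSD17B7, which converts oestrone to oestradiol and also reduces a ketone in cholesterol synthesis, was among the brightest probes at 10.73, 10.79 and 10.59 after and 10.64, 10.71 and 10.64 before maturation. These groups overlapped (0.04, 95% interval -0.18 to 0.25, adjusted p = 0.815). HSD3B7, an enzyme of bile acid synthesis, differed by -0.21 (adjusted p = 0.304) and HSD17B2, which inactivates oestradiol and testosterone, by -0.06 (adjusted p = 0.689). HSD17B3, the testosterone-forming enzyme of the testis, and HSD17B13, a lipid droplet protein of liver, were under the lower quartile on all 6 arrays, with differences of 0.03 and -0.02.

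Neither of the steroid-forming cytochromes P450 measured here, CYP17A1 and CYP21A2, was called. CYP11A1 and CYP19A1 (aromatase) were not among the 58 genes and were not analysed here. CYP17A1, which makes androgens and is typical of theca cells, had levels of 3.89, 4.18 and 3.80 after and 3.72, 3.85 and 3.84 before maturation, all under the lower quartiles. CYP21A2, the adrenal 21-hydroxylase, had levels of 4.78, 5.10 and 4.95 after and 4.68, 4.99 and 4.64 before maturation. Both pairs of groups overlapped (0.15 and 0.17, adjusted p = 0.412 and 0.404). Of 13 measured partners of steroid synthesis 2 rose and 4 fell (3.21% and 8.07% of all probes), with a median difference of -0.08. HSD3B1, of progesterone synthesis, rose by 3.95 ± 0.19, HSD17B1, of oestradiol synthesis, fell by 4.41 ± 0.24, and NR5A1, the transcription factor that drives steroidogenic genes, fell by 1.23 ± 0.13 (adjusted p = 1.5e-05, 2.12e-05 and 0.000755). All 3 are at the same time markers used for cumulus and granulosa cells, of which 9 of 14 fell and 2 rose (8.07% and 3.21% of all probes).

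Cytochromes P450 grouped here under sterol, bile acid and vitamin D metabolism held 1 decrease among 6 genes (8.07% of all probes fell). CYP27A1, the mitochondrial sterol 27-hydroxylase, had levels of 4.76, 4.76 and 4.53 in matured oocytes, against 5.49, 5.30 and 5.17 before maturation. Its groups were apart, and it fell by 0.64 ± 0.12 (1.55-fold, adjusted p = 0.0111), with 0.12 in the narrower ribosomal scaling. No single array decided this call (adjusted p of 0.0103 to 0.0425). CYP39A1, which hydroxylates 24-hydroxycholesterol, had levels of 4.44, 4.86 and 4.96 after and 4.89, 5.13 and 6.03 before maturation. The groups overlapped and replicate 3 before maturation stood far above the rest (-0.60 ± 0.28, adjusted p = 0.195), while with the replicate number as a block the gene was called lower (adjusted p = 0.0441).

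CYP51, the lanosterol demethylase of cholesterol synthesis, had levels of 7.66, 7.59 and 7.64 after and 7.38, 7.85 and 8.03 before maturation. Matured pools were much alike and lay inside the range of the earlier ones (-0.12, 95% interval -0.49 to 0.24, adjusted p = 0.623). CYP7A1, the first enzyme of bile acid synthesis in liver, was dim on all 6 arrays and differed by 0.18 (adjusted p = 0.317). CYP2R1, a vitamin D 25-hydroxylase, differed by -0.03 and CYP24A1, which degrades vitamin D hormone, by 0.095, the second from dim levels (adjusted p = 0.867 and 0.523). Of 10 measured cholesterol synthesis enzymes 0 rose and 2 fell (3.21% and 8.07% of all probes), with a median of -0.03. SC5D, the sterol C5-desaturase, fell by 1.92 ± 0.25 and ACAT2, an acetoacetyl-CoA thiolase, fell by 0.94 ± 0.17 (adjusted p = 0.00189 and 0.0111). The value of ACAT2 in the narrower ribosomal scaling was -0.19, without a call.

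The other 13 cytochromes P450, mostly of fatty acids and foreign compounds, held 1 decrease (8.07% of all probes fell). CYP2D25 and CYP4A21, of vitamin D and bile acids, were counted among these 13. CYP4V2, a fatty acid omega-hydroxylase, had levels of 3.78, 3.71 and 3.68 in matured oocytes, against 4.65, 5.04 and 5.91 before maturation. Matured pools were uniformly dim, under their arrays' lower quartiles, while the earlier pools spread over more than 1 log2 unit with replicate 3 highest. It fell by 1.48 ± 0.27, a measured 2.79-fold lower level (adjusted p = 0.0115). The difference was -1.12 without replicate 3 before maturation and still called, and the call ended without replicate 1 or 2 after maturation (adjusted p = 0.0523 and 0.0565).

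CYP4F2, a hydroxylase of vitamin K and leukotriene B4, had levels of 4.10, 4.14 and 4.01 after and 3.88, 3.70 and 3.71 before maturation, dim in all pools but not overlapping (0.32 ± 0.095, adjusted p = 0.0655). It passed with a common median (0.38, adjusted p = 0.0353) and with trend and robust spread (adjusted p = 0.0339). CYP4F2 was not called with cyclic loess (adjusted p = 0.158) or with any 1 array left out (adjusted p of 0.0513 to 0.175). CYP2C91 was the brightest of the 13, at 6.98, 7.29 and 7.31 after and 7.84, 7.26 and 7.08 before maturation, with overlap (-0.20, adjusted p = 0.516). CYP2C49, another of the porcine CYP2C genes, differed by 0.19 with the matured arrays all higher (adjusted p = 0.214). CYP2C33 rested on 1 array, with 4.71, 3.91 and 3.96 after and 3.77, 4.02 and 4.0 before maturation (adjusted p = 0.415). CYP1A2, CYP2E1 and CYP2A19, hepatic enzymes of foreign compounds, and CYP2D25, a vitamin D 25-hydroxylase of pig liver, differed by 0.23, 0.10, -0.10 and 0.045, with adjusted p of at least 0.278. CYP2B22, CYP2C42, CYP2J34 and CYP4A21, the last a bile acid hydroxylase of the pig, differed by 0.09, 0.15, 0.04 and 0.20 with overlapping groups. Genes of the CYP2 and CYP4 families have close copies, so single levels are uncertain.

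Cytochromes P450 were often dim, with 9 of 22 (40.9%) under the lower quartile on all 6 arrays, against 4 of the 36 other genes (11.1%) and 20.2% of all probes. A dim probe can reflect low RNA or weak binding, and detection calls were not analysed here. With the dimmest 25% of probes left out, 43 of the 58 genes were tested, and 3 were called higher and 7 lower. Of all probes kept, 374 were called higher and 1032 lower. Of 16 measured electron donors, haem enzymes and xenobiotic sensors 0 rose and 3 fell (3.21% and 8.07% of all probes), with a median of -0.11. FDXR, which passes electrons to mitochondrial cytochromes P450 such as CYP27A1, fell by 0.68 ± 0.14, PGRMC1, a haem-binding partner of microsomal ones, fell by 0.82 ± 0.18 and ARNT, the partner of the aryl hydrocarbon receptor, fell by 0.63 ± 0.15 (adjusted p = 0.0184, 0.0255 and 0.0305). None of them was called under the ribosomal scaling (-0.23, -0.37 and -0.18), and in its narrower version they were at 0.073, -0.065 and 0.13. The calls of FDXR and ARNT also ended without replicate 1 or 2 after maturation and without replicate 2 before it (adjusted p of 0.0516 to 0.0918), that of ARNT without replicate 3 before maturation as well (adjusted p = 0.0752), and that of PGRMC1 without any 1 matured array (adjusted p of 0.0502 to 0.103).

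**Figure D4:**
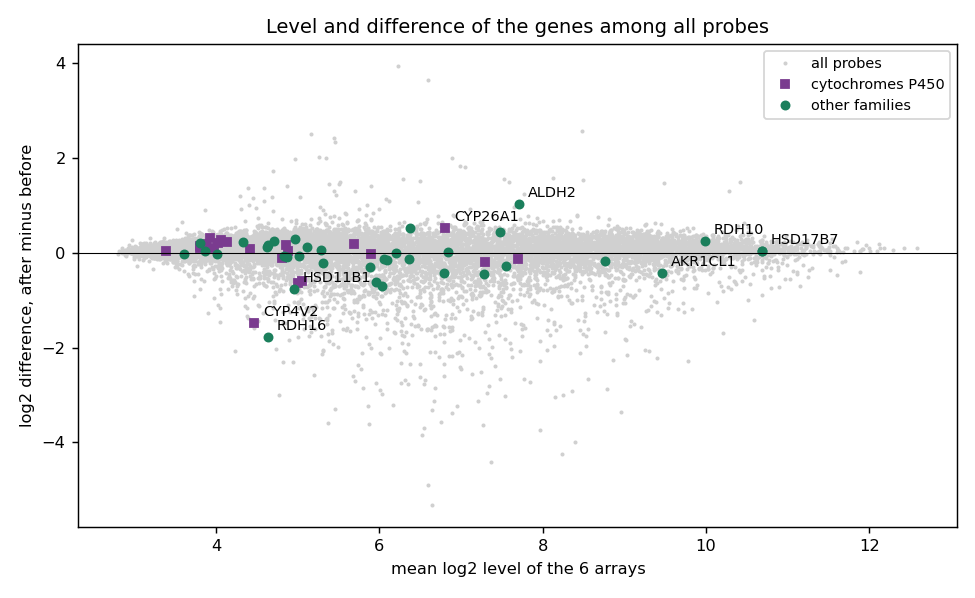
Log2 difference after minus before maturation against the mean log2 level of the 6 arrays, for all 12258 probes (grey), the 22 cytochromes P450 (squares) and the 36 other enzyme genes (circles). Cytochromes P450 gather at low levels, and RDH16 and CYP4V2 combine a low level with the largest decreases of the 58 genes; HSD17B7 and RDH10 lie at the bright end near 0.

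Of 8 aldehyde dehydrogenase genes 1 was called higher, 1 lower and 6 neither, against 3.21% of all probes called higher and 8.07% lower. ALDH2, the mitochondrial enzyme that clears acetaldehyde and lipid aldehydes, had levels of 8.41, 7.88 and 8.40 in matured oocytes, against 7.30, 7.20 and 7.08 before maturation. Even the lowest matured pool, replicate 2, exceeded all earlier pools. ALDH2 rose by 1.04 ± 0.15, a 2.05-fold higher level (adjusted p = 0.0041), the largest increase of the 58 genes. It was called under all 15 alternatives, the narrower ribosomal scaling (1.79) included, and the difference was 0.95 to 1.21 with 1 array left out.

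ALDH6A1, a mitochondrial enzyme of valine and pyrimidine breakdown, had levels of 5.65, 5.50 and 5.87 after and 6.46, 6.20 and 6.48 before maturation. The groups did not overlap, and it fell by 0.70 ± 0.13 (1.63-fold, adjusted p = 0.00998), with 0.05 in the narrower ribosomal scaling. Without replicate 1 after maturation the adjusted p was 0.0521.

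ALDH1L2, which handles formyl-folate in mitochondria, had levels of 7.67, 7.77 and 7.68 after and 7.0, 7.37 and 7.39 before maturation. Matured pools were alike and all higher, and the difference of 0.45 ± 0.12 lay at the threshold (adjusted p = 0.0503). It passed with the replicate number as a block (adjusted p = 0.0343), after a second quantile normalization (0.57, adjusted p = 0.0286), with a common median (0.51, adjusted p = 0.0335) and without the dimmest probes (adjusted p = 0.0455). ALDH1L2 was not called with cyclic loess (adjusted p = 0.0751) or with trend and robust spread (adjusted p = 0.0691). Nor was it called with any 1 array left out (adjusted p of 0.051 to 0.151). ALDH9A1, which serves carnitine synthesis, was bright and overlapped between the groups, at 10.66, 10.77 and 10.68 after and 10.56, 10.73 and 10.69 before maturation (0.05, 95% interval -0.17 to 0.26, adjusted p = 0.767). ALDH18A1, the first enzyme of proline synthesis, differed by -0.17 with overlap (adjusted p = 0.292). ALDH3A1, an enzyme abundant in cornea, differed by -0.09 with matured arrays all lower (adjusted p = 0.489). ALDH5A1, of GABA breakdown, and ALDH16A1, a member whose human form lacks activity, differed by -0.06 and 0.05 (adjusted p = 0.781 and 0.731).

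Of the 4 aldo-keto reductases 0 were called with limma (3.21% of all probes rose and 8.07% fell), and 2 had an unadjusted p under 0.05. AKR1CL1, a porcine relative of the steroid-reducing AKR1C enzymes, was the brightest, at 9.37, 9.16 and 9.21 after and 9.60, 9.50 and 9.95 before maturation. All matured pools were lower, by an amount that missed the threshold (-0.43 ± 0.13, adjusted p = 0.0749). AKR7A2, which reduces succinic semialdehyde and toxic aldehydes, had levels of 5.77, 5.61 and 5.85 after and 5.96, 6.18 and 5.96 before maturation, again without overlap (-0.29 ± 0.11, adjusted p = 0.121). AKR1E2 differed by 0.13 (adjusted p = 0.395). AKR1C1 was dim on all 6 arrays and differed by -0.03 (adjusted p = 0.884); its second probe, which stands for another gene copy of that name, differed by 0.10 (adjusted p = 0.492). In the RefSeq order of assembly Sscrofa11.1 AKR1CL1 and AKR1C1 are next to each other, as are RDH11 and RDH12, and 0 of these genes was called.

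Of 21 measured carbonyl and alcohol oxidoreductases outside these families and prostaglandin enzymes 0 rose and 5 fell (3.21% and 8.07% of all probes), with a median difference of -0.08. PTGES, a prostaglandin E synthase, fell by 1.57 ± 0.15, PTGES3, a co-chaperone with that activity, fell by 1.55 ± 0.19 and the quinone reductase NQO1 fell by 1.70 ± 0.22 (adjusted p = 0.000416, 0.0014 and 0.00192).

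**Figure D5:**
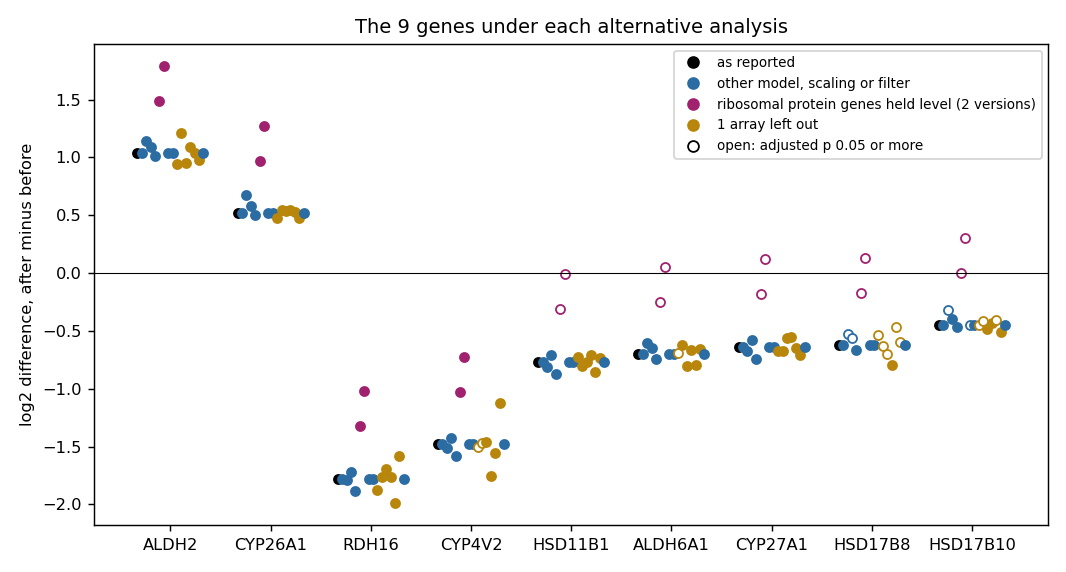
Log2 difference after minus before maturation of the 9 genes that passed the test, as reported (black), under other models, scalings and filters (blue), with ribosomal protein genes held level in 2 versions (purple) and with 1 array left out (ochre); open symbols have an adjusted p of 0.05 or more. ALDH2, CYP26A1 and RDH16 stay filled throughout, while HSD17B10 lies above 0 in both ribosomal scalings and ALDH6A1, CYP27A1 and HSD17B8 in the narrower one. Filling of the purple symbols follows the size of the difference and not the spread of each gene.

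Spread between pools was similar in these genes and on the array as a whole. The median SD over the 58 genes was 0.105 among matured pools and 0.119 among earlier ones, against 0.116 and 0.133 over all probes. Before maturation the highest array was replicate 1 for 18 genes, replicate 2 for 22 and replicate 3 for 18. Among the 7 genes called lower it was replicate 3 for RDH16, CYP4V2 and ALDH6A1, replicate 2 for HSD17B8 and HSD17B10, and replicate 1 for HSD11B1 and CYP27A1.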

How the data were processed

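The deposited table holds log2 expression values that the authors made with RMA, per the submitters' processing notes; its options are not stated, and the log2 scale was inferred from the values. Of 12258 probes 10922 had 1 distinct gene symbol, 268 several and 1068 none listed. RDH10's probe lists its symbol more than once and was kept. All 58 genes matched RefSeq by gene identifier. The members and lists were chosen with earlier results of these data known.

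All probes were fitted with limma 3.58.1 in R 4.3.3 (lmFit, eBayes, two-sided, after minus before), with no filter. Errors of differences are standard errors of that fit, other errors SD over 3 arrays, which limit the precision. Replicates are labelled biological, so p-values measure the spread between these pools. Same-numbered arrays deviated together from their group means (correlations of 0.283, 0.12 and 0.142), so a fit with the replicate number as a block is given where it changes a call. The fit was also run on simulated data drawn from its own variance model, which checks the code and is no support for the calls. The ribosomal scaling was run as planned, on all 49 probes whose symbol starts RPL or RPS and a digit; its version on 37 probes was added after the planned one had been seen.

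Named genes were those called, the brightest of each role, a fixed set, and up to 3 per pathway list (33 in all); the other members are named to account for each. Fixed genes not listed under a single symbol were not analysed here. Python 3.11.15, pandas 2.3.3 and matplotlib 3.10.9 were used.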

Additional observations from a re-analysis of the deposited data

How the results depend on the processing

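With the replicate number as a block, 3 members were called higher and 9 lower, the 9 reported calls among them. Of all probes 621 were called higher and 1226 lower, and among the 33 genes named by rule no call changed. Members called higher numbered 4 after a second quantile normalization, 6 with a common median and 37 with ribosomal protein genes held level, where 2 were called lower and the members' median was 0.49. By construction that scaling adds 1 amount to every difference. Each array is also shifted by its own amount, so the spread used in the test changes, and the counts reflect both. That scaling called 9191 of all probes higher, 541 lower and 9732 in all. Its narrower version, chosen after seeing the data, called 48 members higher and 2 lower, with 8 at least 2-fold higher, 1 at least 2-fold lower and a median of 0.79, and 10712 of all probes higher, 306 lower and 11018 in all. Of all probes, 596 were called higher with the second quantile normalization, 915 with a common median and 254 with cyclic loess. Decreases made up 71.5% of all calls as reported, 59.2% with the second quantile normalization, 49.3% with a common median, 80.6% with cyclic loess, and 5.56% and 2.78% with the ribosomal scaling and its narrower version. The members' median was -0.04 with cyclic loess and -0.061 without the dimmest probes.

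Leaving out 1 array gave 2 to 3 members called higher, 3 to 8 lower, 0 to 1 at least 2-fold higher and 2 at least 2-fold lower, a median of 0.0073 to 0.05, and 103 to 434 of all probes called higher, 531 to 1013 lower and 634 to 1447 in all. Fewer arrays enter those fits. Differences took the opposite sign with ribosomal protein genes held level for HSD17B10 0.00165, AKR1CL1 0.0204, CYP2C91 0.25, CYP51 0.33, CYP2R1 0.43, ALDH18A1 0.28, AKR1C1 0.42, AKR7A2 0.16, ALDH3A1 0.36, ALDH5A1 0.39, CYP2A19 0.35, DHRS1 0.33, DHRS7 0.33, HSD17B13 0.43, HSD17B14 0.0339, HSD17B2 0.39, HSD3B7 0.25, RDH11 0.17 and RDH14 0.30. In the narrower version they did so for ALDH6A1 0.0524, CYP27A1 0.12, HSD17B8 0.13, HSD17B10 0.31, AKR1CL1 0.32, CYP2C91 0.56, CYP51 0.63, CYP2R1 0.73, ALDH18A1 0.58, FDXR 0.0732, ARNT 0.13, AKR1C1 0.73, AKR7A2 0.46, ALDH3A1 0.66, ALDH5A1 0.70, CYP2A19 0.66, CYP39A1 0.16, DHRS1 0.63, DHRS7 0.64, HSD17B13 0.74, HSD17B14 0.34, HSD17B2 0.70, HSD3B7 0.55, RDH11 0.47 and RDH14 0.61. With cyclic loess they did so for ALDH9A1 -0.0253, HSD17B7 -0.0342, HSD11B2 -0.00107, ALDH16A1 -0.0389, CYP2B22 -0.0152, CYP2D25 -0.0613, CYP2J34 -0.0419, DHRS4 -0.0202 and HSD17B3 -0.0618. After the second quantile normalization this held for CYP2R1 0.0756, CYP2B22 -0.00879, CYP2D25 -0.0159, CYP2J34 -0.0151, DHRS1 0.0356 and HSD17B3 -0.0448, with a common median for CYP2R1 0.0302, AKR1C1 0.0274 and HSD17B13 0.0362, and with the mean of all probes of a gene for AKR1C1 0.0373. With 1 array left out the sign turned for ALDH9A1 (-0.00396 to 0.0813), CYP2C91 (-0.36 to 0.0227), HSD17B7 (-0.00621 to 0.092), CYP51 (-0.31 to 0.0134), CYP2R1 (-0.059 to 0.0301), HSD11B2 (-0.17 to 0.15), AKR1C1 (-0.11 to 0.0422), ALDH5A1 (-0.16 to 0.0786), CYP2J34 (-0.0827 to 0.12), DHRS4 (-0.0391 to 0.10), HSD17B3 (-0.00841 to 0.0697). Apart from the ribosomal scalings, 0 of these genes was called as reported, and the cause was not tested. Signal over background was not assessed, which limits statements on dim genes.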

Other observations

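A probe that lists both CYP1A1 and CYP1A2, enzymes induced through the aryl hydrocarbon receptor, cannot be given to either gene and was not counted among the 58. Its log2 levels were 5.53, 5.56 and 5.48 in matured oocytes, against 5.13, 5.20 and 5.17 before maturation. The groups were tight and apart, and the probe rose by 0.36 ± 0.08 (limma adjusted p = 0.0309). CYP1A2's own probe was dim on all 6 arrays and differed by 0.23 (adjusted p = 0.278). A probe shared by CYP4A21 and CYP4A24 overlapped between the groups (0.16 ± 0.21, adjusted p = 0.633).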
